A study of Mus musculus with 15 samples.

Results

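The acute-phase and complement genes described here are 8 members of the 24421 genes in the deposited count table, chosen by name: Lcn2, Saa3, Hp, Fga, C3, C4b, Cfb and Cp. They were chosen with the results of these same libraries known, so their values against vehicle are given as a description, without p-values. The lists of further genes used below were also chosen with earlier results of these data known. The counts and p-values of their genes are therefore a description as well. The data are read counts from 15 RNA-seq libraries of MAP cells, an immortalized mouse line of adipocyte progenitors, after differentiation into adipocytes in culture. In every group, vehicle included, confluent cells received insulin, isobutylmethylxanthine, dexamethasone and rosiglitazone for 2 days and insulin with rosiglitazone for 2 more. Cells at day 7 to 8 were then given forskolin, which activates adenylyl cyclase and raises cyclic AMP, or rosiglitazone, which activates the nuclear receptor PPARγ. The groups were 3 days of rosiglitazone (Rosi3D), vehicle, 4 h of forskolin (FSK4h), 1 day of forskolin (FSK1D) and 3 days of forskolin (FSK3D), with 3 libraries each. The isobutylmethylxanthine of the induction mix also raises cyclic AMP and the rosiglitazone of the mix is the agent of the Rosi3D group, so the vehicle cells had met both kinds of agent before the treatment. The sources used here give neither the doses of the later treatments nor the harvest time of the vehicle cells. All groups come from 1 cell line.

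Acute-phase proteins are plasma proteins whose synthesis changes during inflammation, chiefly in the liver. Interleukin-6 and related cytokines switch many of them on through the transcription factor STAT3 and through C/EBPβ and C/EBPδ, and interleukin-1 acts through NF-κB. Complement is a cascade of plasma proteins. C4 and C2 (classical and lectin pathways) or factor B, once cut by factor D (alternative pathway), are parts of the enzymes that cut C3. Adipocytes are a known source of several of these proteins, and factor D is also known as adipsin, a protein that adipocytes secrete.

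The libraries held 14056200 to 56282582 counts each, and expression is given as CPM, counts relative to the library total after scaling by the trimmed mean of M values (TMM). All 8 genes were among the 14421 that passed the filter on low counts. A gene was called when the adjusted p of edgeR's quasi-likelihood test, taken over all tested genes, was under 0.05, and "rose" and "fell" are used for called genes alone. The labels do not say whether the 3 libraries of a group are separate cultures, so the tests measure a spread that may be technical. The cells carried RNA of all 8 adipocyte markers looked for, whose summed level was 15073 to 15945 CPM in Rosi3D, 7922 to 9126 CPM in vehicle, 8553 to 9936 CPM in FSK4h, 6379 to 7007 CPM in FSK1D and 13865 to 13966 CPM in FSK3D. Lpl was the largest part of these sums, at 4866 CPM in vehicle and 8666 CPM in FSK3D. The adipocyte markers did not move together. Adipoq averaged 693 CPM in FSK1D against 1528 CPM in vehicle, Cidec 397 against 278 CPM and Pparg 194 against 197 CPM. In a bulk sample, fewer cells of a type and less RNA per cell cannot be told apart. The share of counts taken by the ribosomal RNA precursor Rn45s averaged 6.63% in Rosi3D, 8.53% in vehicle, 8.68% in FSK4h, 7.60% in FSK1D and 4.77% in FSK3D, and its part in the results was not tested.

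The 8 genes did not share 1 course. Lcn2, Saa3 and Hp were highest after 1 day of forskolin, Fga was high at 4 h and 1 day, and C3 and C4b were highest after 3 days. Cfb moved least, with its highest mean in FSK1D at 1.62 times its lowest, and Cp was highest in vehicle and lowest after 3 days of forskolin, with a 3.00-fold range. For the others this range was 198-fold (Lcn2), 40.9-fold (Saa3), 39.2-fold (Fga), 19.6-fold (Hp), 11.8-fold (C4b) and 7.64-fold (C3). The range became 294-fold for Lcn2 without vehicle S2 and 61.6-fold for Fga without vehicle S3 (numbers are those of the table's columns).

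**Figure D1:**
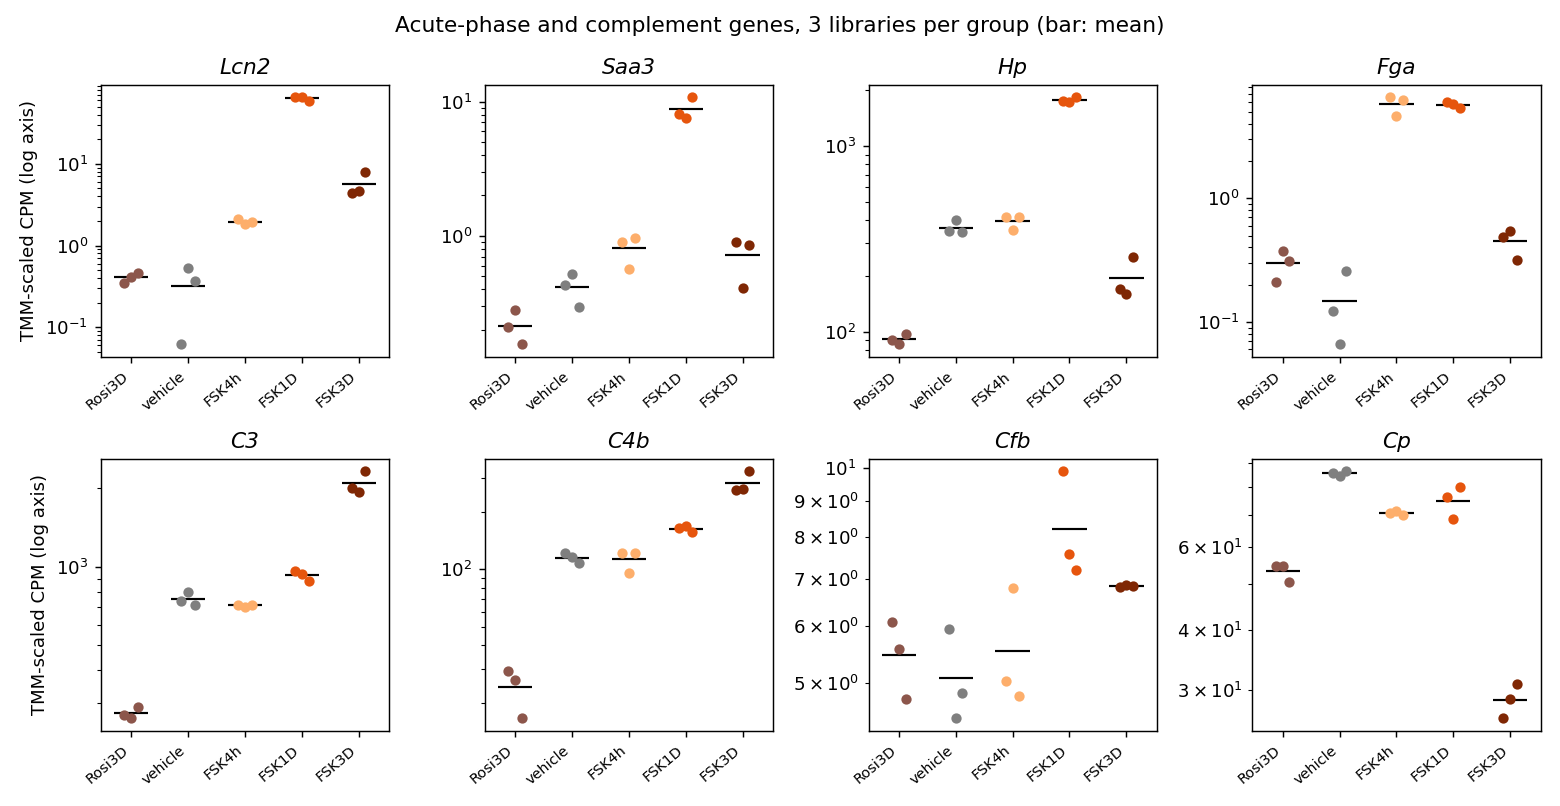
TMM-scaled CPM (log axis, own range in each panel) of the 8 genes in the 15 libraries, with points for libraries and a bar for the mean of the 3 in each group. Lcn2, Saa3 and Hp peak in FSK1D, Fga is high in FSK4h and FSK1D, and C3 and C4b are highest in FSK3D and lowest in Rosi3D.

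Against vehicle, 4 of the 8 genes were called lower after rosiglitazone, where 60.6% of all tested genes were called and 32% were called lower, and the other 4 were not called. At 4 h of forskolin 3 were higher and 1 lower, where 59% of all tested genes were called, 28.4% higher and 30.7% lower. At 1 day 7 were higher and 1 lower, where 40.2% of all tested genes were called, 19.5% higher and 20.7% lower. At 3 days 6 were higher and 2 lower, where 52.9% of all tested genes were called, 25.9% higher and 27% lower. The median log2 fold change of the 8 against vehicle was -0.83 in Rosi3D, 0.12 in FSK4h, 1.49 in FSK1D and 1.08 in FSK3D, where the medians of all tested genes were -0.01, -0.03, -0.02 and 0.01. The choice of the genes used these contrasts, so nothing is read from these counts. The 4 contrasts share the vehicle libraries.

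Levels can be compared between genes only per length. Per kilobase of the gene length in the deposited table, Hp was the highest of the 8 in vehicle (271 ± 22.5 CPM per kb, SD, n = 3) and in FSK1D (1321 ± 38.3), and C3 was the highest in FSK3D (407 ± 40.6). In Rosi3D, Hp had 67.6 ± 4.37 and C3 had 53.3 ± 2.66 CPM per kb. Lcn2 reached 73.8 ± 4.07 CPM per kb in FSK1D, above the C4b of that group (30.3 ± 1.00) and below its C3 (180.4 ± 8.48). Fga stayed at or under 1.73 ± 0.316 CPM per kb in every group, so its large relative change was a change at a low level.

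Lcn2 encodes lipocalin 2, a secreted protein that binds bacterial siderophores and so withholds iron. It was measured at 0.352, 0.418 and 0.467 CPM in Rosi3D and at 0.0617, 0.525 and 0.367 CPM in vehicle. Under forskolin it was 2.09, 1.86 and 1.95 CPM at 4 h, 64.9, 65.0 and 59.0 CPM at 1 day and 4.45, 4.59 and 7.86 CPM at 3 days. No forskolin library overlapped with vehicle at any time, while the Rosi3D libraries lay inside the vehicle range. The log2 fold change against vehicle was 2.65 ± 0.39 (SE) at 4 h, 7.64 ± 0.25 at 1 day and 4.21 ± 0.32 at 3 days, all called, against 0.34 ± 0.53 in Rosi3D, which was not called. Over the 3 vehicle libraries Lcn2 had 28 counts, and the lowest vehicle library lay well under the other two. Without vehicle S2 the values against vehicle were 3.28, 8.27 and 4.84 log2 units at the 3 forskolin times. Lcn2 fell by 3.43 on the log2 scale between FSK3D and FSK1D.

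Saa3 encodes serum amyloid A3, an acute-phase apolipoprotein that in mice is also made outside the liver, adipose tissue included. It had 0.211, 0.279 and 0.156 CPM in Rosi3D and 0.432, 0.525 and 0.294 CPM in vehicle. With forskolin it had 0.907, 0.566 and 0.973 CPM at 4 h, 8.11, 7.53 and 10.8 CPM at 1 day and 0.897, 0.411 and 0.859 CPM at 3 days. The 1-day libraries stood far above all others, and the 3-day libraries overlapped with vehicle. Saa3 rose by 4.37 ± 0.28 log2 units in FSK1D. At 4 h (0.97 ± 0.34) and 3 days (0.86 ± 0.36) it was called too, but the 4 h call was lost without vehicle S3, FSK4h S4 or FSK4h S6. The 3-day call was lost without vehicle S1, vehicle S3, FSK3D S10 or FSK3D S12, in DESeq2, with counts divided by 2, with library totals alone and with only the 2 groups fitted. Both were lost when libraries were thinned to the smallest total. In Rosi3D the difference was -0.98 ± 0.43, not called, although no Rosi3D library reached the lowest vehicle library. It was called with library totals alone (-1.01), with thinned libraries (-2.01), without vehicle S3 (-1.14) and without Rosi3D S14 (-1.09). The liver-type paralogs were scarcer than Saa3. Saa1 had 0.619, 0.644 and 1.22 CPM in FSK1D and at most 0.0657 CPM in a vehicle library, and it rose at 4 h (edgeR adjusted p = 0.000716) and 1 day (adjusted p = 7.55e-06). It passed the filter on low counts through forskolin libraries alone, so these p-values are a description. With 2 counts over the vehicle group, its ratio to vehicle was 16.2 at 4 h (exact binomial 95% interval 4.14 to 139.8) and 37.2 at 1 day (9.89 to 313), an interval that covers counting error only. Low counts were mostly even, and with counts divided by 2 these intervals were 2.52 to 681 and 6.22 to 1512. Saa2 had 0.509, 0.492 and 0.230 CPM in FSK1D and did not pass the filter on low counts.

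Hp encodes haptoglobin, which binds free haemoglobin and is a known product of adipocytes. It was abundant without forskolin, at 90.4, 85.3 and 97.0 CPM in Rosi3D and 348, 399 and 345 CPM in vehicle. It measured 417, 355 and 416 CPM at 4 h of forskolin, 1757, 1739 and 1836 CPM at 1 day and 169.8, 159 and 254 CPM at 3 days. The 4 h libraries overlapped with vehicle, the 1-day libraries were all more than 4 times as high, and the 3-day and Rosi3D libraries were all lower. The log2 fold changes against vehicle were 0.12 ± 0.15 at 4 h (not called), 2.29 ± 0.15 at 1 day, -0.90 ± 0.15 at 3 days and -2.0 ± 0.16 in Rosi3D. Hp was thus higher than vehicle after 1 day of forskolin and lower after 3, with a difference of -3.19 ± 0.16 between FSK3D and FSK1D. FSK3D remained above Rosi3D by 1.10 log2 units.

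Fga encodes the α chain of fibrinogen, the clot-forming plasma protein, which needs all of its α, β and γ chains and is made mainly by hepatocytes. It had 0.211, 0.372 and 0.311 CPM in Rosi3D and 0.123, 0.0657 and 0.257 CPM in vehicle. It had 6.57, 4.61 and 6.30 CPM at 4 h, 6.0, 5.79 and 5.36 CPM at 1 day and 0.489, 0.548 and 0.318 CPM at 3 days of forskolin. The 4 h and 1-day libraries overlapped with each other and lay far above the rest. Fga rose by 5.30 ± 0.32 log2 units at 4 h and by 5.26 ± 0.32 at 1 day, values that were 5.88 and 5.86 without vehicle S3. The 3-day difference of 1.54 ± 0.49 was called, but not with libraries thinned to the smallest total. With only the 2 groups fitted, Fga did not pass the filter on low counts and was not tested. The 3-day difference was 2.13 without vehicle S3. The difference in Rosi3D was 0.90 ± 0.50, not called, and 1.5 and called without vehicle S3. Vehicle held 13 counts of Fga in all.

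The genes of the other chains, Fgb and Fgg, lie next to Fga on chromosome 3 and were read over the same groups. Fgb had 4.51, 3.6 and 5.40 CPM at 4 h and 0.801, 0.606 and 0.919 CPM at 1 day, and no count in any Rosi3D, vehicle or FSK3D library. Fgg had 1.73, 1.46 and 1.33 CPM at 4 h, 1.13, 0.379 and 1.30 CPM at 1 day, 4 counts in all at 3 days, and none in Rosi3D or vehicle. Counts of all chains were thus found together in every library of 4 h and 1 day. Against a floor of 3 counts over the vehicle group, Fgb was at least 136-fold higher at 4 h and at least 23.3-fold higher at 1 day, and Fgg was at least 46.0-fold and 28.2-fold higher. With counts divided by 2, because low counts were mostly even, these bounds were 68.1-fold and 11.6-fold for Fgb and 23.0-fold and 14.1-fold for Fgg. Such floors cover counting error only. Both genes were called at both times (edgeR adjusted p between 6.34e-13 and 4e-07). They passed the filter on low counts only through the FSK4h and FSK1D libraries, the groups called higher, so these p-values are a description. Between FSK1D and FSK4h, Fgb fell by 2.53 ± 0.32 log2 units (adjusted p = 1.1e-07), while the difference was -0.69 ± 0.41 for Fgg (adjusted p = 0.153) and -0.03 for Fga.

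**Figure D2:**
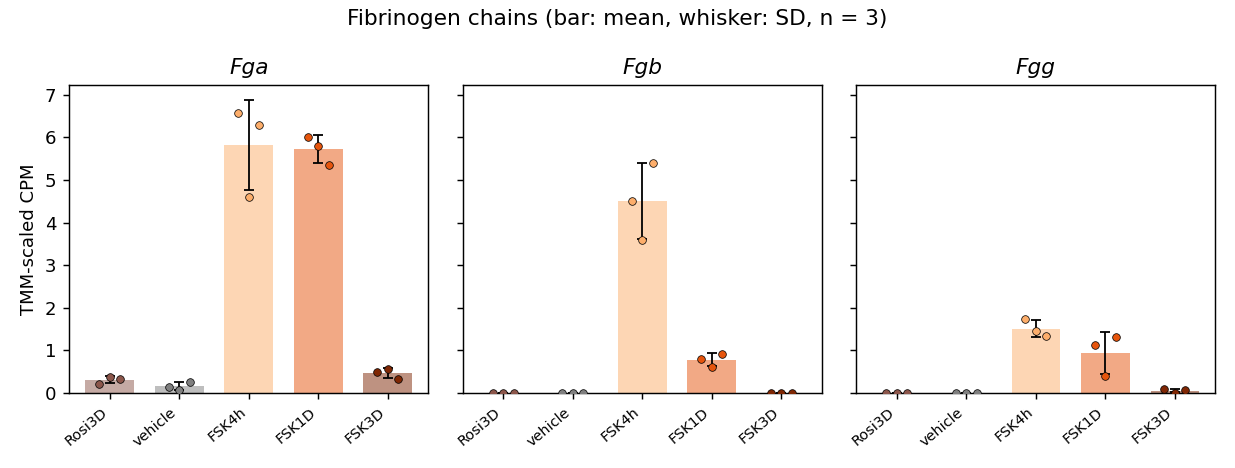
TMM-scaled CPM of the fibrinogen chains Fga, Fgb and Fgg in each library (points), with bars for group means and whiskers for the SD of 3 libraries. Fga is at about the same level in FSK4h and FSK1D, Fgb is highest in FSK4h, and Fgb and Fgg have no counts in Rosi3D and vehicle.

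The markers of hepatocytes, which make these proteins in the body, were counted beside these genes. Of 9 hepatocyte markers, Ttr and Serpina1a had no count in any library and Alb had at most 10 counts over a group. Their summed level was 0.856 to 1.07 CPM in Rosi3D, 0.294 to 0.833 CPM in vehicle, 5.42 to 7.53 CPM in FSK4h, 1.48 to 2.45 CPM in FSK1D and 0.274 to 0.732 CPM in FSK3D, and this list holds Fgb and Fgg, which averaged 4.50 and 1.51 CPM in FSK4h. Of 9 macrophage markers, C1qa, C1qb and C1qc had no count in any library and Ptprc had at most 4 counts over a group. The macrophage sum was 1.99 to 3.15 CPM in Rosi3D, 2.78 to 3.09 CPM in vehicle, 5.25 to 5.58 CPM in FSK4h, 4.29 to 5.09 CPM in FSK1D and 3.22 to 4.59 CPM in FSK3D. Of 7 neutrophil markers 6 were in the table, Mpo among them with no count, and their sum was 3.27 to 3.75 CPM in Rosi3D, 3.32 to 4.04 CPM in vehicle, 2.71 to 2.91 CPM in FSK4h, 5.55 to 7.23 CPM in FSK1D and 7.98 to 11.1 CPM in FSK3D. Elane made up 7.08 CPM of the last on average. The 6 progenitor markers summed to 377 to 418 CPM in Rosi3D, 719 to 763 CPM in vehicle, 622 to 702 CPM in FSK4h, 905 to 943 CPM in FSK1D and 712 to 780 CPM in FSK3D. These markers did not move together. In FSK1D, Ly6a averaged 431 CPM against 121 CPM in vehicle and Pdgfra 279 against 208.5 CPM. Pdgfrb had 209.3 against 402 CPM. Cd34, Dlk1 and Dpp4 averaged at most 1.48 CPM in any group. The 5 endothelial markers stayed between 3.08 and 9.23 CPM. The part of these cell types in the results was not tested.

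The DNA before the start sites is shown for the members with an entry in the RefSeq promoter table (build GRCm38.p6) whose levels moved most, and for Fgb and Fgg because they encode the other fibrinogen chains. Of the 8 members 5 matched, and Hp, C4b and Cfb had no entry. The motifs searched, chosen with the expression values known, were the C/EBP site TTGCNNAA, the STAT site TTCNNNGAA, the interleukin-6 response core CTGGGAA, the cyclic AMP response core TGACG, the PPAR direct repeat and the kappa-B site, each on both strands of the 250 bases before the start. Capitals mark the matches. The stretches run 5′ to 3′ in the direction of the gene and stop at the first annotated exon of the gene, except for Lcn2, where the match lies within an annotated alternative first exon and only the 30 bases around it are given.
Lcn2 chr2:32387937-32387966: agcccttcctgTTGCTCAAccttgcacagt
Saa3 chr7:46715701-46715926: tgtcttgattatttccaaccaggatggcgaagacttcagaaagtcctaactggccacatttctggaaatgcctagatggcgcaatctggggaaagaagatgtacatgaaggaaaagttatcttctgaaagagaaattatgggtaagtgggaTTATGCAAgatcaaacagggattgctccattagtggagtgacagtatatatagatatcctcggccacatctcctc
Fga chr3:83025903-83026075: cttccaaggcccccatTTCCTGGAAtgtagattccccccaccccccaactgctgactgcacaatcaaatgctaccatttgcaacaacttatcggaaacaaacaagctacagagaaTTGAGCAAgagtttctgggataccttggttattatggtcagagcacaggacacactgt
Fgb chr3:83049864-83050113: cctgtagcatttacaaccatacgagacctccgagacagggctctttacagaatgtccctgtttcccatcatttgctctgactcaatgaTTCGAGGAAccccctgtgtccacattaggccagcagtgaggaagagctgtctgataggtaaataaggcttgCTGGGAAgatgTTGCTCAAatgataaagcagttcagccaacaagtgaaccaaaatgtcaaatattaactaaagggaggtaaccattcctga
Fgg chr3:83007474-83007723: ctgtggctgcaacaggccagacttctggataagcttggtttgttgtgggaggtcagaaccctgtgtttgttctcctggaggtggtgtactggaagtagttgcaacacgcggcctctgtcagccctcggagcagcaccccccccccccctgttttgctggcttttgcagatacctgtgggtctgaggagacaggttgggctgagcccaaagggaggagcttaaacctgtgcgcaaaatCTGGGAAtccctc
C3 chr17:57228137-57228386: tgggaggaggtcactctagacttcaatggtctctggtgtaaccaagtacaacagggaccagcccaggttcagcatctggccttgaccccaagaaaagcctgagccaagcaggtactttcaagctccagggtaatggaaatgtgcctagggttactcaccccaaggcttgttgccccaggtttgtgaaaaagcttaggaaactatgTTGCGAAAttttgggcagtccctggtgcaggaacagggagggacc

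The C/EBP letters were found 216 to 209 bases before the start of Lcn2, 99 to 92 before Saa3, 135 to 128 before Fga, 45 to 38 before C3 and 80 to 73 before Fgb, and in 1 of the 2 windows of Cp, 70 to 63 bases before that start. Among 32851 promoter windows of the same length, 9.56% held this motif. The STAT letters occurred before Fga (234 to 226) and Fgb (162 to 154), with 7.02% of all windows holding them. The interleukin-6 core occurred before Fgb (91 to 85) and Fgg (13 to 7), with a share of 9.10% over all windows. The windows of the members held no match to the cyclic AMP core, the PPAR repeat or the kappa-B site, which occurred in 17.8%, 0.0335% and 7.25% of all windows. None of these motifs overlapped another in the stretches shown. A match is a description of the letters and says nothing of binding.

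C3 is the protein on which all complement pathways converge, and its fragment C3adesArg is known as acylation-stimulating protein in fat. It had 270.5, 262 and 289 CPM in Rosi3D and 736, 803 and 713 CPM in vehicle. With forskolin it had 716, 703 and 711 CPM at 4 h, 962, 941 and 879 CPM at 1 day and 2004, 1943 and 2331 CPM at 3 days. The 3-day libraries were all far above the others, the Rosi3D libraries were all far below them, and the 4 h libraries lay within or just under the vehicle range. The log2 fold change was -0.08 at 4 h (not called), 0.30 at 1 day, 1.48 at 3 days and -1.46 in Rosi3D, each with an SE of 0.06. The 3-day treatments thus lay on opposite sides of vehicle, and FSK3D was 2.93 ± 0.06 log2 units above Rosi3D.

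C4b encodes complement C4, which the classical and lectin pathways cut. It had 29.2, 26.4 and 16.6 CPM in Rosi3D and 122, 116 and 108 CPM in vehicle. It had 122, 95.4 and 121 CPM at 4 h, 165, 168 and 158 CPM at 1 day and 261, 264 and 327 CPM at 3 days of forskolin. The order of the groups was that of C3, with the 4 h libraries overlapping with vehicle. The differences were -2.23 ± 0.18 log2 units in Rosi3D, -0.03 at 4 h (not called), 0.50 at 1 day and 1.30 at 3 days. The 1-day call was lost without vehicle S2, vehicle S3, FSK1D S7 or FSK1D S8. FSK3D lay 3.54 ± 0.18 log2 units above Rosi3D. The near-identical copy C4a, which encodes sex-limited protein, shared 16.5% of the 100-base windows of the longest C4b transcript, so some reads could fall to either gene. C4a had 3.22, 4.25 and 2.96 CPM in FSK3D against 1.42, 1.41 and 1.28 CPM in vehicle and rose by 1.31 ± 0.25 log2 units (edgeR adjusted p = 3.15e-05).

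Cfb encodes factor B, which supplies the protease of the alternative-pathway C3 convertase. It had 6.09, 5.58 and 4.75 CPM in Rosi3D and 5.96, 4.46 and 4.84 CPM in vehicle. Under forskolin it had 5.03, 6.79 and 4.79 CPM at 4 h, 9.90, 7.57 and 7.2 CPM at 1 day and 6.81, 6.85 and 6.84 CPM at 3 days. The 1-day and 3-day libraries were all above vehicle, while the Rosi3D and 4 h libraries overlapped with it. Cfb rose by 0.69 log2 units at 1 day. The difference of 0.42 at 3 days was called but was lost without vehicle S2, vehicle S3, FSK3D S10 or FSK3D S12. Of the exonic bases of Cfb, 2246 are shared with an annotated read-through gene on the same strand, Gm20547, which was not analysed here, so the Cfb counts are uncertain. C2, the classical-pathway counterpart of factor B and its neighbour on chromosome 17, had 11.8, 11.9 and 9.67 CPM in FSK3D against 8.80, 9.09 and 5.76 CPM in vehicle. It rose by 0.48 ± 0.17 log2 units at 3 days (edgeR adjusted p = 0.0185), a call lost without vehicle S3, FSK3D S10 or FSK3D S11.

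Cp encodes ceruloplasmin, a copper-carrying ferroxidase that helps iron leave cells. It had 54.7, 54.5 and 50.4 CPM in Rosi3D and 85.6, 84.4 and 86.5 CPM in vehicle. With forskolin it had 70.5, 71.2 and 69.8 CPM at 4 h, 76.5, 68.5 and 80.0 CPM at 1 day and 26.1, 28.6 and 30.8 CPM at 3 days. Every treated library was under every vehicle library, and the 3-day forskolin libraries were the lowest. Cp fell by 0.68 on the log2 scale in Rosi3D, by 0.28 at 4 h and by 1.58 at 3 days. The fall of 0.19 at 1 day was lost without vehicle S3 or FSK1D S8. Cp was the member that was lower in FSK3D than in Rosi3D among those called in that comparison, by 0.90 log2 units. It shares 108 exonic bases with Hps3 on the other strand.

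**Figure D3:**
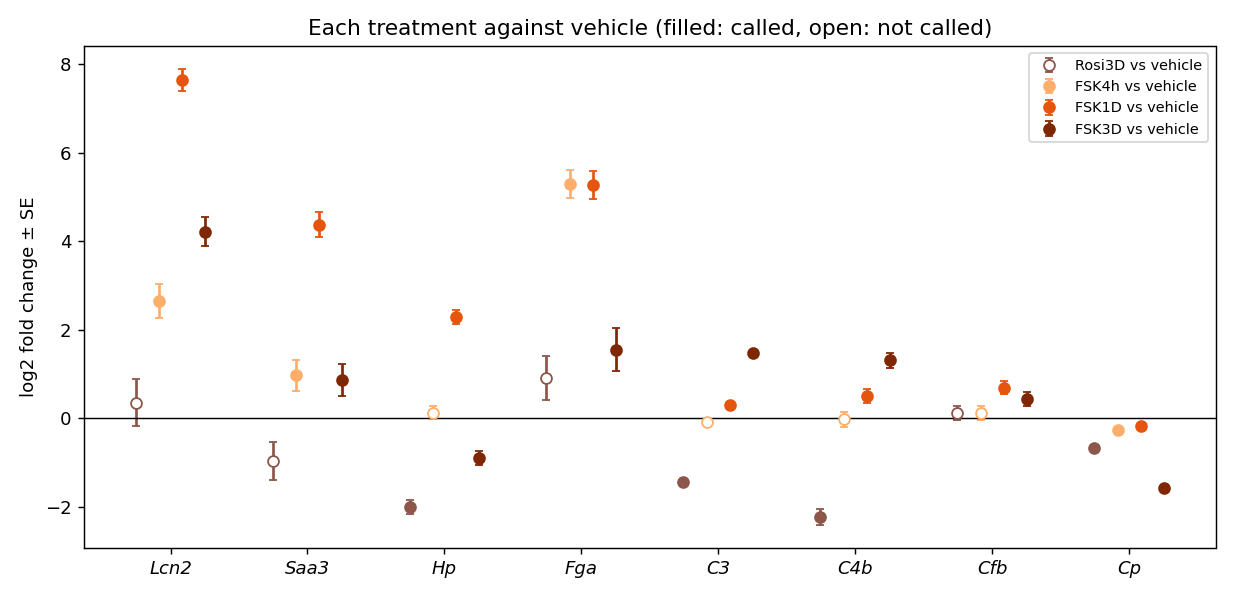
Log2 fold change against vehicle with its SE for the 8 genes in Rosi3D and at the 3 forskolin times, with filled points for called and open points for not called differences. Lcn2 reaches 7.64 in FSK1D, C3 and C4b are above 0 in FSK3D and under 0 in Rosi3D, and Cp is under 0 throughout.

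Between the forskolin times, 6 of the 8 genes were called higher in FSK1D than in FSK4h and the other 2, Fga and Cp, were not called. The C4b call was lost without FSK4h S5 (0.43), and Cp was called without FSK1D S8 (0.15) and with library totals alone (0.25). In this comparison 57.3% of all tested genes were called, 28.4% higher and 28.9% lower. Of the members, Lcn2 (4.99 log2 units), Saa3 (3.41) and Hp (2.17) had the largest values. In FSK3D against FSK1D, C3 (1.17) and C4b (0.80) were higher, Lcn2, Saa3, Hp, Fga and Cp were lower, by 1.39 to 3.72 log2 units, and Cfb (-0.27) was not called. Over all tested genes 51% were called, 25.2% higher and 25.8% lower. Against FSK4h, FSK3D had C3 (1.56), Lcn2 (1.56) and C4b (1.33) higher and Fga (-3.76), Cp (-1.30) and Hp (-1.02) lower, with 68.5% of all tested genes called, 35% higher and 33.5% lower. FSK3D against Rosi3D had 5 genes called higher and Cp lower, with 43.1% of all tested genes called, 22.5% higher and 20.7% lower. The 5 were Lcn2 (3.87), C4b (3.54), C3 (2.93), Saa3 (1.83) and Hp (1.10), and Fga (0.64) and Cfb (0.31) were not called.

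The other acute-phase genes were taken from a list of 40, of which 26 were tested. As with the lists below, its choice used earlier results of these data, so its counts and p-values are a description. At 4 h of forskolin 15 rose and 4 fell, at 1 day 15 rose and 7 fell, and at 3 days 8 rose and 6 fell. In Rosi3D 3 rose and 10 fell. Of all tested genes 28.4% rose and 30.7% fell at 4 h, 19.5% and 20.7% at 1 day, 25.9% and 27% at 3 days, and 28.6% and 32% in Rosi3D. The 3-day counts of the list were thus near the shares over all genes. The median log2 fold change was -0.14 in Rosi3D (-0.09 with genes at 0 in a group set to their bound), 0.72 at 4 h, 1.58 at 1 day and 0.37 at 3 days, beside medians between -0.03 and 0.01 over all genes. Mt2, a metal-binding metallothionein, had 59.6 ± 2.98 CPM at 4 h and 68.5 ± 7.43 CPM at 1 day against 5.87 ± 0.783 CPM in vehicle (SD, n = 3), and rose by 3.35 ± 0.10 and 3.55 ± 0.10 log2 units (edgeR adjusted p = 9.47e-23 and 6.69e-23). Lrg1, a leucine-rich plasma glycoprotein, had 281 ± 32.6 CPM at 1 day against 31.0 ± 2.15 CPM in vehicle and rose by 3.18 ± 0.15 (adjusted p = 7.24e-09). Trf, which encodes the iron carrier transferrin, had 1202 ± 76.1 CPM in FSK3D against 353 ± 60.7 CPM in vehicle and rose by 1.77 ± 0.14 (adjusted p = 8.69e-07).

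Other members of that list moved the other way. Itih4, an inter-α-trypsin inhibitor heavy chain, fell by 1.26 ± 0.12 log2 units at 1 day of forskolin (edgeR adjusted p = 6.15e-09) and by 2.34 ± 0.13 in Rosi3D (adjusted p = 5.7e-14). Serpina3c, a serine protease inhibitor, fell by 1.44 ± 0.10 at 4 h (adjusted p = 7.86e-15), while its family member Serpina3n rose by 2.41 ± 0.13 at 1 day (adjusted p = 1.98e-12) and by 1.07 ± 0.13 in Rosi3D (adjusted p = 5.04e-07). The Serpina3 genes are close copies of each other, so their split of reads is uncertain. Il1rn, the interleukin-1 receptor antagonist, fell in Rosi3D by 3.42 ± 0.19 (adjusted p = 7.56e-16) and at 3 days of forskolin by 1.49 ± 0.16 (adjusted p = 5.51e-09). Between the 3-day treatments, 17 of the 26 were higher in FSK3D than in Rosi3D and 3 were lower. Over all tested genes, 22.5% were called higher and 20.7% lower in this comparison. Orm3, an orosomucoid, had 7.72 ± 0.632 CPM in FSK3D against 0.678 ± 0.225 CPM in Rosi3D (3.39 ± 0.25, adjusted p = 1.29e-13), and Lbp, which carries bacterial lipopolysaccharide, was higher by 2.12 ± 0.13 (adjusted p = 6.08e-16). The hepatic acute-phase genes Crp and Apcs had no count.

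Of 49 other complement genes 24 were tested. At 4 h of forskolin 5 rose and 8 fell, at 1 day 5 rose and 7 fell, at 3 days 12 rose and 6 fell, and in Rosi3D 4 rose and 8 fell. The shares over all tested genes were 28.4% risen and 30.7% fallen at 4 h, 19.5% and 20.7% at 1 day, 25.9% and 27% at 3 days, and 28.6% and 32% in Rosi3D, so the 4 h and 1-day counts were near them. The median was -0.16 in Rosi3D, -0.15 at 4 h, -0.12 at 1 day and 0.38 at 3 days, beside medians between -0.03 and 0.01 over all genes. Between FSK3D and Rosi3D, 11 were higher, 1 was lower and the median was 0.47, beside 0.00 over all genes. Of all tested genes, 22.5% were called higher and 20.7% lower between these groups. Cfd, which encodes factor D, was the complement gene with the highest level, at 7203 ± 497 CPM in FSK3D, 2054 ± 169 CPM in Rosi3D and 4698 ± 198 CPM in vehicle. It rose by 0.62 ± 0.07 log2 units in FSK3D (edgeR adjusted p = 1.32e-06) and fell by 1.19 ± 0.07 in Rosi3D (adjusted p = 1.14e-10) and by 0.41 ± 0.07 at 1 day of forskolin (adjusted p = 0.000201). Masp1, a protease of the lectin pathway, had 7.71 ± 1.13 CPM in Rosi3D against 23.6 ± 1.12 CPM in vehicle and fell by 1.60 ± 0.10 (adjusted p = 6.75e-16), while it rose by 0.94 ± 0.09 at 1 day of forskolin (adjusted p = 5.01e-11).

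C1s1 and C1ra encode proteases that start the classical pathway. C1s1 had 44.3 ± 2.86 CPM in FSK1D against 98.8 ± 7.04 CPM in vehicle and fell by 1.16 ± 0.07 log2 units (edgeR adjusted p = 4.04e-13), and C1ra fell by 1.01 ± 0.10 (adjusted p = 6.9e-10). C1s1 and C1ra were lower in Rosi3D as well, by 0.73 ± 0.07 (adjusted p = 1.14e-09) and 0.60 ± 0.10 (adjusted p = 3.93e-06). Several receptors and regulators changed at low levels. C5ar2, a receptor for C5a, had 3.93 ± 0.288 CPM at 4 h against 0.0206 ± 0.0356 CPM in vehicle, where it had 2 counts, a ratio of 179 (exact binomial 95% interval 49.2 to 1484, counting error only, 31.6 to 7090.0 with counts divided by 2; adjusted p = 2.58e-11), and Cd55, which speeds the decay of C3 convertases, had 1.5 ± 0.110 CPM against 0.0914 ± 0.0480 CPM (4.01 ± 0.56, adjusted p = 1.6e-07). C5ar2 and Cd55 passed the filter on low counts through libraries other than vehicle, so their p-values are a description. C3ar1, the receptor for C3a, fell by 2.35 ± 0.28 in Rosi3D (adjusted p = 7.7e-09) and by 1.18 ± 0.27 in FSK3D (adjusted p = 0.000306). Its rise of 0.63 ± 0.23 at 4 h (adjusted p = 0.0166) was lost without vehicle S1 or FSK4h S4, with library totals alone (0.44) and with thinned libraries (0.51). Serping1, an inhibitor of the classical pathway, did not pass the filter on low counts.

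**Figure D4:**
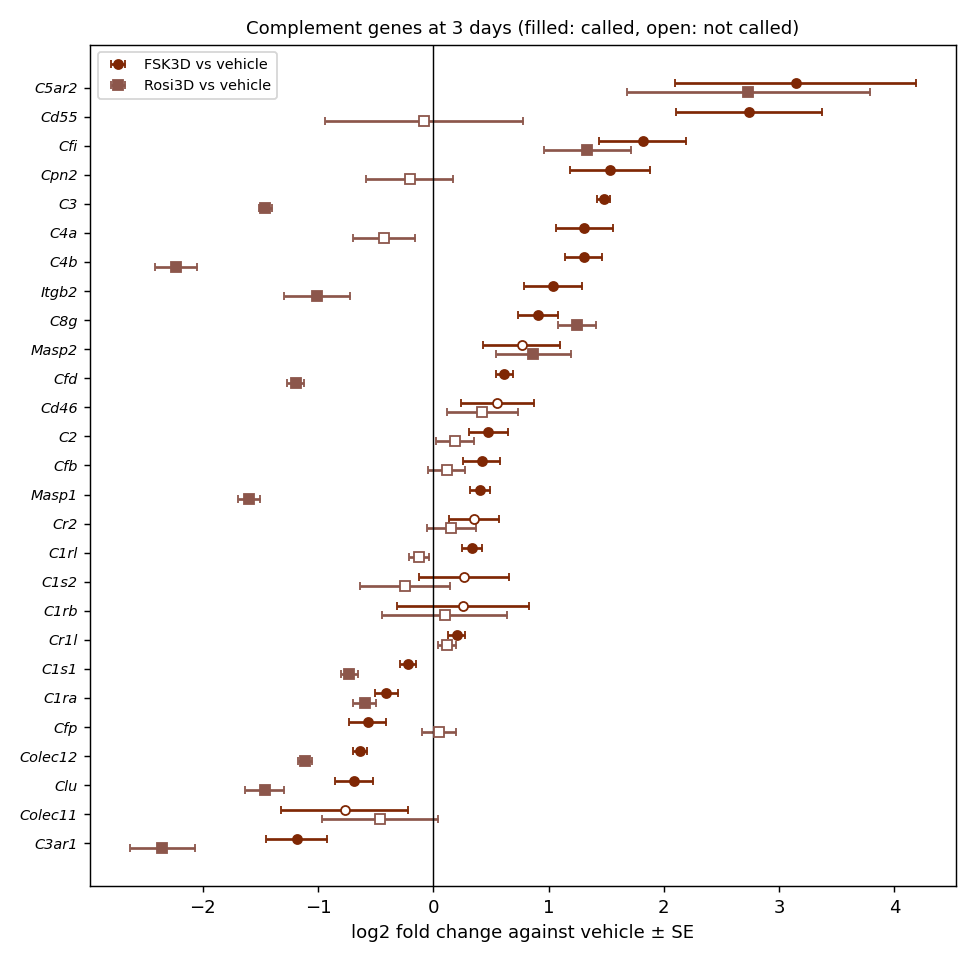
Log2 fold change against vehicle with its SE for the 24 tested complement genes of the list and C3, C4b and Cfb, with circles for FSK3D, squares for Rosi3D, filled for called and open for not called. C3, C4b, Cfd, Masp1 and Itgb2 lie above 0 in FSK3D and under 0 in Rosi3D.

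Inducers and transcription factors of the acute-phase response were taken from a list of 39, of which 35 were tested. At 4 h of forskolin 21 rose and 7 fell, at 1 day 16 rose and 5 fell, at 3 days 17 rose and 10 fell, and in Rosi3D 8 rose and 20 fell. Over all tested genes 28.4% rose and 30.7% fell at 4 h, 19.5% and 20.7% at 1 day, 25.9% and 27% at 3 days, and 28.6% and 32% in Rosi3D. The median log2 fold change of the list was -0.24 in Rosi3D, 0.30 at 4 h, 0.25 at 1 day and 0.20 at 3 days, beside medians between -0.03 and 0.01 over all genes. Il6, the cytokine that induces many acute-phase genes, had 0.229, 0.325 and 0.156 CPM in Rosi3D and 0.123, 0.197 and 0.330 CPM in vehicle. It had 25.7, 25.0 and 26.5 CPM at 4 h, 12.5, 9.09 and 16.5 CPM at 1 day and 1.47, 0.959 and 0.922 CPM at 3 days of forskolin. Every forskolin library was above every vehicle library, with the highest values at 4 h. Il6 rose by 6.90 ± 0.25, 5.88 ± 0.27 and 2.39 ± 0.41 log2 units at the 3 times (edgeR adjusted p = 3.76e-20, 1.83e-17 and 1.14e-05), while in Rosi3D the difference was 0.13 ± 0.54 (adjusted p = 0.855). Il6 passed the filter on low counts through forskolin libraries alone, so these p-values are a description. Lif, a cytokine of the same family, rose by 4.31 ± 0.13 at 4 h (adjusted p = 2.15e-24) and by 1.63 ± 0.14 at 1 day (adjusted p = 1.43e-11).

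Stat3, the transcription factor through which interleukin-6 signals, had 504 ± 14.5 CPM at 4 h against 132 ± 3.85 CPM in vehicle and rose by 1.93 ± 0.05 log2 units (edgeR adjusted p = 2.81e-27). Socs3, a feedback inhibitor that STAT3 induces, had 69.5, 76.6 and 67.4 CPM at 4 h, 63.8, 57.7 and 64.2 CPM at 1 day and 14.1, 14.1 and 17.4 CPM at 3 days, against 14.9, 14.6 and 13.1 CPM in vehicle. Its libraries overlapped with vehicle at 3 days (0.11 ± 0.09, adjusted p = 0.321). Cebpd, which encodes C/EBPδ, had 35.0, 40.4 and 36.9 CPM at 4 h, 51.2, 53.7 and 55.3 CPM at 1 day and 13, 18.4 and 17.4 CPM at 3 days, against 4.91, 4.65 and 5.14 CPM in Rosi3D and 11.4, 9.26 and 12 CPM in vehicle. It rose at each forskolin time, by 2.30 ± 0.10 at 1 day (adjusted p = 6.43e-19), and fell by 1.15 ± 0.12 in Rosi3D (adjusted p = 4.87e-10). Nfkbiz, a nuclear cofactor of NF-κB on genes such as Lcn2, rose by 2.21 ± 0.06 at 4 h and 2.23 ± 0.06 at 1 day (adjusted p = 8.9e-26 and 2.83e-25). Bcl3, another nuclear cofactor of NF-κB, rose by 3.46 ± 0.24 at 1 day (adjusted p = 6.59e-14). Osmr, the receptor subunit for oncostatin M, rose by 1.84 ± 0.05 at 1 day (adjusted p = 1.37e-25) and fell by 1.57 ± 0.05 in Rosi3D (adjusted p = 3.93e-23), and Lifr, the receptor for LIF, fell by 1.32 ± 0.05 at 1 day (adjusted p = 1.23e-20).

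**Figure D5:**
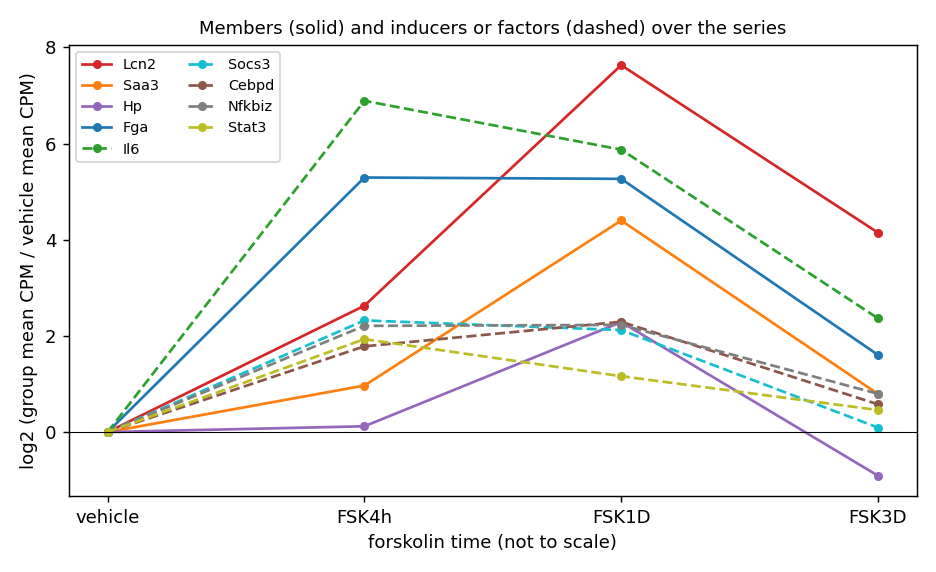
Log2 ratio of each forskolin group's mean CPM to the vehicle mean for Lcn2, Saa3, Hp and Fga (solid) and for Il6, Socs3, Cebpd, Nfkbiz and Stat3 (dashed), with the times evenly spaced and not to scale. Il6 is highest at 4 h, Lcn2, Saa3 and Hp are highest at 1 day, and Hp ends under vehicle at 3 days.

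Of 28 receptors and partners of the 8 proteins 22 were tested. At 4 h 11 rose and 5 fell, at 1 day 9 rose and 5 fell, at 3 days 7 rose and 9 fell, and in Rosi3D 7 rose and 11 fell. For all tested genes the shares were 28.4% risen and 30.7% fallen at 4 h, 19.5% and 20.7% at 1 day, 25.9% and 27% at 3 days, and 28.6% and 32% in Rosi3D, and the counts of risen genes at 3 days and in Rosi3D were near these. The median was -0.51 in Rosi3D, 0.23 at 4 h, -0.01 at 1 day and 0.12 at 3 days, beside medians between -0.03 and 0.01 over all genes. Lrp1, a large endocytic receptor, had 9391 ± 624 CPM in FSK1D against 4784 ± 84.2 CPM in vehicle and rose by 0.97 ± 0.05 log2 units (edgeR adjusted p = 2.97e-17). Slc40a1, the iron exporter ferroportin with which ceruloplasmin works, had 1.30 ± 0.284 CPM at 4 h and 2.62 ± 0.298 CPM at 1 day against 15.6 ± 0.926 CPM in vehicle, and fell by 3.61 ± 0.15 and 2.57 ± 0.13 (adjusted p = 7.31e-21 and 1.34e-17). Heph, the ferroxidase related to ceruloplasmin, fell by 0.74 ± 0.06 at 1 day (adjusted p = 1.58e-11). Hmox1, which degrades the haem that haptoglobin helps to clear, rose by 2.20 ± 0.09 at 4 h (adjusted p = 9.92e-13). Plau, the urokinase that turns plasminogen into the fibrin-dissolving plasmin, rose by 2.18 ± 0.06 at 4 h (adjusted p = 1.04e-25). Tlr2, a receptor reported to bind serum amyloid A, fell by 1.45 ± 0.15 at 4 h (adjusted p = 6.63e-10) and by 2.25 ± 0.16 in Rosi3D (adjusted p = 5.92e-14). Cd36, a scavenger receptor, rose by 2.93 ± 0.08 in Rosi3D (adjusted p = 1.62e-14).

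The genes most like each member were found by the root mean square difference of log2(CPM + 0.5) over the 5 group means, after centring each gene, and are named as a description. Lcn2 had no close match, with Tnfrsf9 at 0.899, Prg4 at 1.08 and Lrg1 at 1.13 log2 units. For Saa3 the nearest were Stc1 (0.321), Il13ra2 (0.359) and Rasl10b (0.404), and for Hp they were Cdh17 (0.412), Ahr (0.462) and Tubb3 (0.50). For Fga the nearest was Mt2 (0.189), ahead of Gcnt2 (0.398) and Olr1 (0.401). The added 0.5 shrinks the changes of genes at low levels, and Fga averaged 0.149 CPM in vehicle. Without it the changes differed more, at 5.30 log2 units for Fga and 3.35 for Mt2 at 4 h of forskolin. C3 was among the 3 genes most like C4b, with C3 (0.355) coming after Wfdc21 (0.134) and Enpp3 (0.250) for C4b, and with Enpp3 (0.258), Gjb5 (0.259) and Orm3 (0.295) nearest to C3. Cp was most like Mboat1 (0.128), Nptxr (0.138) and Col28a1 (0.167). The matches of Cfb, which changed little, were Zfp618, 1600023N17Rik and Pnoc, which stayed at or under 1.04 CPM in vehicle, FSK1D and FSK3D.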

How the data were processed

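RNA of differentiated MAP adipocytes was depleted of ribosomal RNA and sequenced, following the labels' protocols. In the table as deposited by the authors there are raw whole-number counts per gene symbol, not normalized, and a gene length; fastp, STAR, featureCounts and GRCm38 (mm10) are named in the submitters' processing notes, and the sources used here do not give versions, annotation, strand or read-pair settings. Low counts were mostly even, with 407 to 539 genes at a count of 1 and 721 to 907 at a count of 2 per library. Column headings give the group and a library number (S1 to S15), which differs from the labels' replicate numbers.

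Counts were filtered with filterByExpr, scaled by TMM and tested in R 4.3.3 with edgeR 4.0.16 (robust quasi-likelihood fit over the 15 libraries, residual degrees of freedom 10), two-sided, with p-values adjusted by Benjamini-Hochberg over 14421 genes. The standard error is the log2 fold change divided by the square root of F. The 8 members, the lists and the motifs were chosen with earlier results of these data known, and the test was tried on simulated counts with known changes. Those changes were not made from levels as low as those of Lcn2, Saa3 and Fga in vehicle. In the lists, the 3 called genes with the largest change in each direction and a mean of at least 1 CPM in a group were eligible to be named, with a fixed set of key genes, part of which is not reported here. Other comparisons of named genes are given in places, such as Lif, Osmr and Serpina3n at 1 day. Alternatives were other scalings, filters, halved or thinned counts, pairwise fits, DESeq2 1.42.0 and each library left out. They were not run on those 1-day values. Positions and exons are from GENCODE vM21 on GRCm38, and promoters from RefSeq.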

Additional observations from a re-analysis of the deposited data

Results flagged for a closer look

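Some genes were called in opposite directions in different treatments, and the difference between those treatments was called as well by edgeR's quasi-likelihood test. Among the 8 genes, the values are a description because the choice of genes used these contrasts. Hp was higher than vehicle in FSK1D and lower in FSK3D, with FSK3D minus FSK1D at -3.19 ± 0.16 log2 units (SE). C3 was higher than vehicle in FSK3D and lower in Rosi3D, with FSK3D minus Rosi3D at 2.93 ± 0.06, and C4b showed the same with 3.54 ± 0.18.

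Cfd was higher in FSK3D than vehicle and lower in both FSK1D and Rosi3D, with differences of 1.03 ± 0.07 for FSK3D minus FSK1D (adjusted p = 1.67e-09) and 1.81 ± 0.08 for FSK3D minus Rosi3D (adjusted p = 7.75e-13). C3ar1 was higher at 4 h and lower at 1 and 3 days of forskolin, with -1.26 ± 0.24 for FSK1D minus FSK4h (adjusted p = 3.13e-05) and -1.81 ± 0.26 for FSK3D minus FSK4h (adjusted p = 1.74e-07). Clu was higher in FSK1D and lower in FSK3D, with a difference of -1.07 ± 0.16 (adjusted p = 9.25e-06). The calls of C3ar1 at 4 h and 1 day and of Clu at 1 day were each lost when single libraries were left out.

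Il6st, the signalling receptor of interleukin-6, was higher at 4 h and lower at 3 days, with -0.39 ± 0.04 for FSK3D minus FSK4h (adjusted p = 4.55e-10), and its 4 h value reversed when libraries were scaled by their totals alone. Stat3 and Cebpd were higher in FSK3D than vehicle and lower in Rosi3D, with differences of 1.02 ± 0.05 (adjusted p = 8.04e-19) and 1.72 ± 0.12 (adjusted p = 8.1e-14).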

How the results depend on the processing

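All 36 counts of calls stayed within 1.5 times their value under the 8 kinds of alternative. Without each library in turn, members called ran from 4 to 6 in Rosi3D, 3 to 4 at 4 h and 6 to 8 at 1 day and at 3 days. Of the values of the 8 genes under the alternatives, 842 kept direction and call, 25 lost a call, 11 gained a call and 14 reversed. For the other named genes these numbers were 2432, 38, 7 and 10. Scaling by library totals alone moved the median of all genes to -0.23 in FSK4h against vehicle, 0.17 in FSK1D against FSK4h and 0.20 in FSK3D against FSK4h. The share of calls that were higher became 27.3%, 68.8% and 65.1%, in place of 48.1%, 49.6% and 51.1% with TMM. Under this scaling the 4 h values reversed for Hp (-0.071), Cfb (-0.084), C2 (-0.16) and Il6st (-0.064), Fga reversed in FSK1D against FSK4h (0.13) and Saa3 in FSK3D against FSK4h (0.065), and calls were gained by C3 at 4 h (-0.27), Saa3 in Rosi3D (-1.01), Cp in FSK1D against FSK4h (0.25) and Cfb in FSK3D against FSK4h (0.49). Thinned to the smallest total, Saa3 was 0.14 in FSK3D against FSK4h, 0.37 in FSK4h against vehicle and 2.53 in FSK3D against Rosi3D, and Lcn2 was 3.24 at 4 h and 8.24 at 1 day against vehicle. Cfb was called in FSK3D against FSK4h without FSK4h S5 (0.47). Hp was called at 4 h (0.13) with no filter on low counts.

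With single libraries left out, 10 differences that were not called changed sign. Their values ran between -0.077 and 0.091 for C4b, -0.14 and 0.17 for C2 and -0.037 and 0.25 for Cfb at 4 h, between -0.25 and 0.037 for C2 at 1 day, and between -0.0097 and 0.18 for Socs3 at 3 days. In Rosi3D they ran between -0.17 and 0.97 for Lcn2 and -0.15 and 0.54 for Il6. They ran between -0.17 and 0.070 for Fga in FSK1D against FSK4h, -0.29 and 0.090 for Saa3 in FSK3D against FSK4h, and -0.046 and 0.21 for Cebpb in FSK3D against Rosi3D. The cause was not tested. No paired analysis was possible because the columns carry no replicate number of the labels. Low counts limit Lcn2, Saa3 and Fga in Rosi3D and vehicle.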
